A study of Mus musculus with 4 samples.

Results

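The contralateral dorsal root ganglia (DRG) and the contralateral dorsal spinal cord of the same kind of operated mouse were set against each other, gene by gene. Both tissues came from wild-type young adult male mice labelled BL6/C57, 7 days after transection of the left sciatic and femoral nerves. The DRG library held RNA of the ganglia at lumbar levels 4 to 6, and the cord library RNA of the dorsal part of the lumbar cord. Each side of each tissue is 1 library, 4 in all, and the number of animals behind a library is not stated. Tissue of the contralateral side is uncut but comes from an operated mouse, so it does not stand for an uninjured animal. A feature counted as measured when it reached 1 FPKM, a fragment count scaled by transcript length and library size, in either contralateral library, which held for 13674 of 21883 features. The tables of the 2 tissues were normalised separately, so every level set across tissues here is approximate. Since each side is 1 library, the differences could not be checked against replicates and carry no p-value.

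DRG hold the cell bodies of sensory neurons, which carry touch, position, temperature, itch and pain signals from the body. Each cell body is wrapped by satellite glia, and the axons are wrapped by Schwann cells, whose myelin has its own set of proteins. The dorsal cord holds the neurons that receive and process this input, many of them inhibitory, together with astrocytes, oligodendrocytes and microglia. Ganglion neurons and Schwann cells derive from the neural crest, and cord neurons and most cord glia from the neural tube. The ganglion has connective tissue and leaky vessels, whereas the cord lies behind the blood-brain barrier.

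The difference between the tissues was taken as the log2 of (DRG + 1) over (cord + 1) in FPKM, so that a positive value means a higher level in DRG. On this scale 2-fold means a ratio of 1 or more (DRG) or -1 or less (cord). In the contralateral libraries 1792 features (13.1% of those measured) were at least 2-fold higher in DRG and 2116 (15.5%) at least 2-fold higher in cord. Together these are 3908 features (28.6%), and the other 9766 (71.4%) lay within 2-fold. Over all measured features the median log2 ratio was -0.11, and the middle 50% of features lay between -0.66 and 0.46. Differences of 8-fold or more on this scale were found for 261 features in the direction of DRG and 243 in that of cord. Both libraries held 11662 of the measured features at 1 FPKM or more, 931 reached that level in DRG alone and 1081 in cord alone. Summed FPKM was 431795 in contralateral DRG and 425636 in contralateral cord. At the edge of the measured range, 133 features whose higher library read 1 to 1.1 FPKM had a median log2 ratio of -0.05, and 175 features at 0.9 to 1 FPKM had -0.04.

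**Figure D1:**
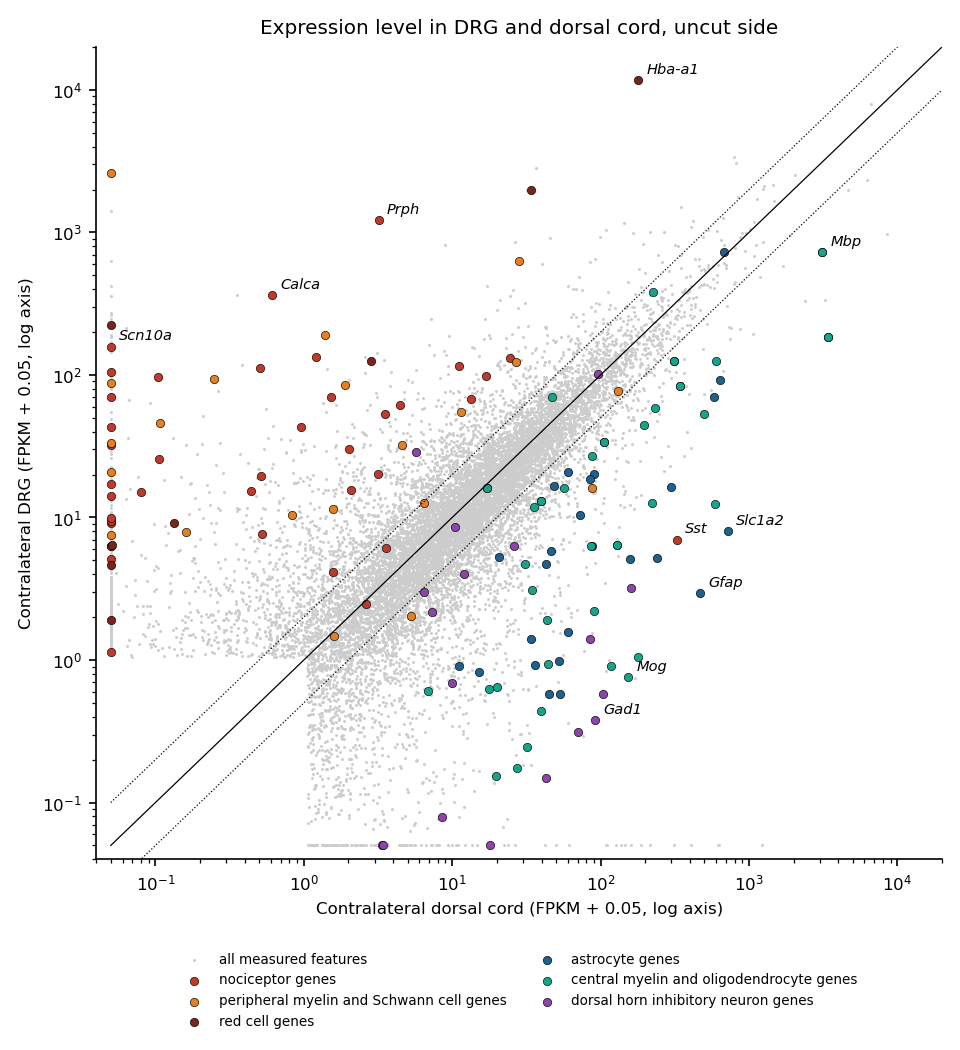
Level of every measured feature in contralateral cord (x axis) and contralateral DRG (y axis), in FPKM + 0.05 on log axes, with members of 6 gene lists coloured; the solid line marks equal levels and the dotted lines 2-fold differences. Nociceptor, peripheral myelin and red cell genes lie mostly above the lines, with the sensory neuron gene Prph at 1213 FPKM in DRG, and astrocyte, central myelin and inhibitory neuron genes mostly below, with Gfap at 469 FPKM in cord.

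The same comparison was made between the ipsilateral (cut side) libraries, which share no library with the contralateral pair but may come from the same animals. There 2018 of 13940 features (14.5%) were at least 2-fold higher in DRG and 2309 (16.6%) in cord. Of the 1792 features higher in contralateral DRG, 1280 (71.4%) were also at least 2-fold higher in ipsilateral DRG, which is 63.4% of the ipsilateral list. Of the 2116 features higher in contralateral cord, 1462 (69.1%) were so on the cut side too, 63.3% of the ipsilateral list. Past 2-fold in the opposite direction on the cut side stood 5 and 18 features of these lists. In 1124 features (8.22%) the lower DRG library was at least 2-fold above the higher cord library, and in 1300 (9.51%) the lower cord library was at least 2-fold above the higher DRG library. The median absolute log2 ratio was 0.57 between the contralateral tissues, 0.20 between the sides of DRG and 0.28 between the sides of cord. Across the 13674 features, which share libraries and are not independent, the log2 ratios of the 2 sides had a Pearson r of 0.84.

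Levels of most defining markers fitted the labelled tissues. Of 39 nociceptor genes 36 were at least 2-fold higher in DRG, beside 13.1% of all measured features, and Sst in cord. Of 25 astrocyte, 35 central myelin and 18 inhibitory neuron genes, 24, 32 and 14 were at least 2-fold higher in cord, beside 15.5%. Of the inhibitory neuron genes, 1 was at least 2-fold higher in DRG. The sensory neuron and cord genes given next are among the 15 highest and 15 lowest ratios. Sensory neuron genes such as Prph, Calca and Scn10a were at 1213, 365 and 158 FPKM in contralateral DRG and at 3.14, 0.565 and 0 FPKM in contralateral cord. Cord genes such as Gfap, Mog and Gad1 were at 469, 153 and 91.8 FPKM in cord and at 2.903, 0.711 and 0.328 FPKM in DRG. Motor neurons lie in the ventral cord. Chat, which makes acetylcholine in them, read 1.603 FPKM in contralateral cord, and Slc5a7, the choline transporter gene, read 3.196 FPKM. The motor and cholinergic list, which includes Prph, had 10 of 15 members measured, 4 at least 2-fold higher in DRG and 2 in cord. Cord genes were read at a low level in contralateral DRG. The astrocyte, central myelin, dorsal horn and GABA and glycine lists below contain 13 cord genes that had at least 30 FPKM in both cord libraries and under 1% of the cord level in contralateral DRG. Their contralateral DRG level was 0.561% of the cord level in the median, against 0.0329% on the cut side, and it was lower on the cut side for 11 of the 13. Over all 70 genes of these lists with 30 FPKM or more in both cord libraries, the medians were 8.59% and 7.98%. Mobp, an oligodendrocyte myelin gene, read 0.998 FPKM in contralateral and 0.0376 FPKM in ipsilateral DRG, beside 178 and 276 FPKM in cord. Blood cell transcripts also differed between the tissues. Haemoglobin genes together made up 3.69% of the summed FPKM in contralateral DRG and 3.54% in ipsilateral DRG, against 0.0574% and 0.0362% in cord. Because these are bulk samples, fewer cells of a type and less RNA per cell cannot be told apart in any result below.

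Among the 15 highest ratios were genes of sensory neurons, Schwann cells and blood. Fxyd2, which encodes a regulator of the sodium pump, read 360 and 272 FPKM in DRG against 0 and 0.923 FPKM in cord (log2 ratio 8.50). Prph (chr15:98885605-98889409 in the mm9 build used by the authors), the gene of the intermediate filament peripherin, read 1213 and 982 FPKM in DRG against 3.14 and 7.997 FPKM in cord. Its plain ratio without the pseudocount was 387-fold. The 95% interval of that fold ran from 183 to 819.6. It was built from the standard errors implied by the authors' deposited test statistics of both tissues. These also contain the error of the ipsilateral libraries and leave out variation between animals.

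The next genes of the ranking separated the tissues in the same way. Pirt, which encodes a membrane protein that regulates TRP channels, read 366 and 260.4 FPKM in DRG and 0.303 and 0.195 FPKM in cord (8.14). Avil, the gene of the actin-binding protein advillin used as a marker of sensory neurons, read 272 and 270 FPKM against 0 and 0.0773 FPKM (8.09). Both DRG libraries lay above both cord libraries for these genes. Calca, which encodes the neuropeptide CGRP, read 365 and 227 FPKM against 0.565 and 2.91 FPKM (7.87). Bet3l, Tusc5, Tmem233, Prdm12, Pmp2, Scn10a, Scn11a, S100a9 and Hba-a2 were also among the top 15, with log2 ratios from 6.48 to 7.96. Hba-a2 and Hba-a1 are near-identical copies with the same deposited locus, so the split of reads between them is uncertain.

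Among the 15 lowest ratios were genes of astrocytes, oligodendrocytes and inhibitory neurons. Gfap (chr11:102748650-102758514), the gene of the astrocyte intermediate filament, had the lowest ratio. It read 2.903 and 3.05 FPKM in DRG against 469 and 881 FPKM in cord (-6.91), 162-fold lower in contralateral DRG with an interval of 84.5 to 309. Slc1a2, the main astrocyte glutamate transporter gene, read 7.98 and 2.34 FPKM against 721 and 628 FPKM (-6.33). Mog, which encodes a protein of the outer surface of central myelin, read 0.711 and 0.0324 FPKM against 153 and 135 FPKM (-6.50). For these 3 genes both cord libraries lay above both DRG libraries. The gene 6330527O06Rik, listed as Lamp5 in the RefSeq table, was at 0.697 and 0.418 FPKM in DRG and 171 and 138 FPKM in cord (-6.66). Mobp, Gad1, Slc6a5, Ermn, Camkv, Cck, Slc12a5, Slc32a1, Tac2 and Cldn11 followed, with log2 ratios from -6.48 to -5.47. The remaining member of the lowest 15, the pseudogene Rpl34-ps1, changed sign on the cut side. It read 0.312 and 17.3 FPKM in DRG against 60.3 and 1.96 FPKM in cord, and its reads can be shared with the near-identical parent gene.

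The most abundant transcripts also differed. FPKM is per length, so levels of genes can be compared within a library. Among the highest levels in contralateral DRG, small RNA genes aside, were those of Hba-a1 at 11727 FPKM, the neurofilament genes Nefm and Nefl at 3369.5 and 3052 FPKM, and Sncg at 2848 FPKM. In contralateral cord they included the iron storage gene Fth1 at 4658 FPKM, the myelin gene Mbp at 3100.4 FPKM, and Sparcl1, an astrocyte matrix gene, at 2404 FPKM. Axonal filament genes were thus among the most abundant in DRG, and a myelin and an astrocyte gene in cord. Fth1 was abundant in both, at 1994 and 1976 FPKM in DRG and 4658 and 5477 FPKM in cord (-1.22). Tmsb4x, an actin-binding peptide gene, was at 2109 and 1254 FPKM (0.75), and the chaperone gene Hsp90ab1 at 2004 and 1235 FPKM (0.70). Snap25, a vesicle fusion gene, was in the cord list at 1892 FPKM against 961 FPKM in DRG (-0.98).

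Promoter sequence was compared because the leading genes of both directions are cell type markers. The windows below are the 250 bases before the annotated start of genes among the highest and lowest ratios, 5′ to 3′ on the gene's strand. They come from RefSeq (GRCm38.p6, not the mm9 build of the expression tables). Capitals mark matches to 3 motifs searched on both strands: TATAAA (the TATA box core), GGGCGG (the GC box) and TAATTA (a homeodomain core). The first pair is from genes higher in DRG, Prph at chr15:99054924-99055173 on the plus strand and Avil at chr10:127000459-127000708 on the plus strand. The second pair is from genes higher in cord, Gfap at chr11:102897201-102897450 and Mog at chr17:37023399-37023648, both on the minus strand.
Prph: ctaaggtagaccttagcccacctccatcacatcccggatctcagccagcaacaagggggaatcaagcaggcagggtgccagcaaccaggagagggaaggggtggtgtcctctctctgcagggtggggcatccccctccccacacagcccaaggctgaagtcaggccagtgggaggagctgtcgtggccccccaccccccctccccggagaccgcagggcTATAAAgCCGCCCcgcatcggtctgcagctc
Avil: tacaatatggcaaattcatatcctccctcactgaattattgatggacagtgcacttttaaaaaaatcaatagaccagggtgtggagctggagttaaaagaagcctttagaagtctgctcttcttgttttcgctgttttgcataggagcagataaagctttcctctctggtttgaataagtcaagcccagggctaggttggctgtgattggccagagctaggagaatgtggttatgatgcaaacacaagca
Gfap: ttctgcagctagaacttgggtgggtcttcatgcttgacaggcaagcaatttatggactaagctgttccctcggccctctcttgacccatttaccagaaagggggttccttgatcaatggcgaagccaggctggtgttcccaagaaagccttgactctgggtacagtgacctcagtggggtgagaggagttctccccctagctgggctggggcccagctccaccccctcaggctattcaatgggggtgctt
Mog: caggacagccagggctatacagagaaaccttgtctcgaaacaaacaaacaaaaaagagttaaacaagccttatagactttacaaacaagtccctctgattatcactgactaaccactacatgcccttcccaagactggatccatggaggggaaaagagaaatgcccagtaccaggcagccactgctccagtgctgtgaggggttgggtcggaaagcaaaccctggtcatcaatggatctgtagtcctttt
Prph holds TATAAA starting at -31 from the start and, at -24, CCGCCC, which is GGGCGG on the other strand. The windows of Avil, Gfap and Mog hold none of the 3 motifs, which says only that these letters are not in these windows.

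Of 13618 measured features left after small RNA genes and loci under 300 bases were set aside, 10718 (78.7%) had a window in the RefSeq table. TATAAA was found in 6.43% of these windows, and in 12.97% of all 27025 windows of the table. The share was 10.7% for features at least 2-fold higher in DRG, 6.82% for those at least 2-fold higher in cord and 5.61% for features within 2-fold. At log2 ratios of at least 3 it was 13.6% of 177 windows, and at most -3 it was 9.43% of 159 windows. GGGCGG was found in 32.9% of all windows of the table, 59.1% of measured, 55.2% of DRG-higher and 54.2% of cord-higher windows. TAATTA was found in 4.90% of all windows, 2.26% of measured, 2.09% of DRG-higher and 2.17% of cord-higher windows. The ratio of observed to expected CpG, which is high in CpG island promoters, had a median of 0.723 over measured features and 0.378 over all 27025 windows. It was 0.376 at log2 ratios of at least 3 and 0.518 at most -3. Both tails of the distribution thus held CpG-poorer windows than the measured features as a whole. Against all windows, the DRG tail was near the median and the cord tail above it. These are shares without a test.

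Transcription factors of sensory neurons were higher in DRG almost throughout. Of 17 measured members of this list (3 more were under 1 FPKM), 16 were at least 2-fold higher in DRG, beside 13.1% of all measured features. None of the 17 was at least 2-fold higher in cord, beside 15.5%, and the median log2 ratio was 2.33, beside -0.11 over all features. These shares and this median are the background for each list below. A list member at 0 in a contralateral library is measured only at 1 FPKM or more in the other, so its call is fixed. Contralateral cord listed 2 of these 17 at 0. Prdm12, required for the nociceptor lineage, was at 96.8 and 50.5 FPKM in DRG and 0.0537 and 0.0241 FPKM in cord (6.54). Isl2, a LIM homeodomain gene, was at 55.3 and 30.96 FPKM in DRG and listed at 0 in both cord libraries. Pou4f1, which encodes the pan-sensory factor Brn3a, was present in cord at a lower level, with 67.7 against 5.75 FPKM (3.35). Runx1 and Runx3, which separate nociceptor from proprioceptor fates, had ratios of 3.33 and 2.33. The exception was Eya2, a transcriptional coactivator gene, at 2.65 FPKM in DRG and 3.78 FPKM in cord (-0.39).

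Nociceptor genes were higher in DRG in nearly all members. All 39 were measured, 36 were at least 2-fold higher in contralateral DRG, and the median log2 ratio was 3.55 (cut side 3.32). In 34 of them the lower DRG library was at least 2-fold above the higher cord library, against 8.22% of all features. Contralateral cord listed 14 of the 39 at 0, and their contralateral 2-fold calls follow from the filter and the pseudocount. Mrgprd, a receptor gene of non-peptidergic nociceptors, read 70.4 and 44.05 FPKM in DRG and 0 in both cord libraries. Th, the tyrosine hydroxylase gene that marks a class of touch-sensitive C fibre neurons, was at 15.4 against 2.04 FPKM (2.43). Sst went the other way. This peptide gene of a subset of itch neurons was at 6.95 and 6.17 FPKM in DRG but 326 and 266 FPKM in cord (-5.36). Interneurons of the cord also make somatostatin. Oprd1, the delta opioid receptor gene (0.63), and Galr1, a galanin receptor gene (-0.08), lay within 2-fold.

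Genes of large-diameter sensory neurons were split. Of 23 measured, 8 were at least 2-fold higher in DRG and 4 in cord, with a median of 0.09 on the uncut side and -0.59 on the cut side. The neurofilament genes Nefl, Nefm and Nefh, abundant in large axons, were at 3052, 3369.5 and 989.8 FPKM in contralateral DRG. Their contralateral cord levels were 821, 797 and 165 FPKM. Accn3 (the older symbol of Asic3), an acid-sensing channel gene, read 27.9 against 0.140 FPKM (4.66). Other members are shared with cord neurons and differed little. Pvalb, a calcium buffer gene of proprioceptors and of cord interneurons, read 102 and 65.03 FPKM in DRG and 96.1 and 111 FPKM in cord, and the libraries of the 2 tissues overlapped. The juxtaparanodal potassium channel genes Kcna1 and Kcna2 had log2 ratios of -0.05 and 0.02. Kcnc1, which encodes a channel of fast-spiking neurons, was higher in cord at 84.9 against 18.7 FPKM (-2.12).

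**Figure D2:**
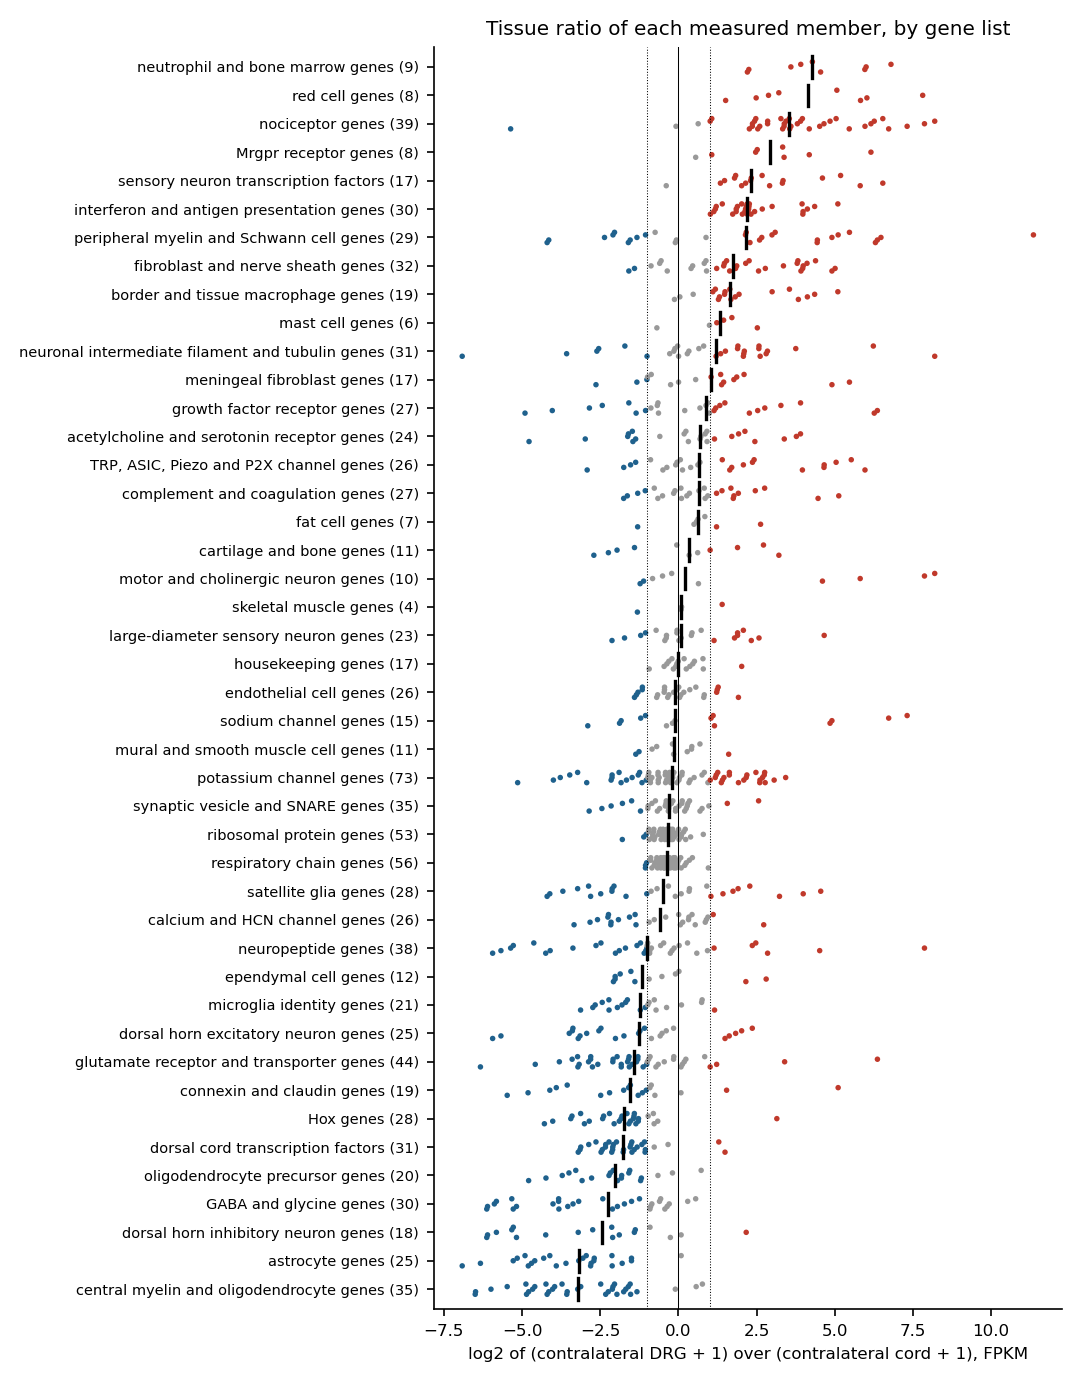
Log2 ratio of contralateral DRG over contralateral cord for each measured member of 44 gene lists, ordered by the list's median (black bar), with the number of measured members in parentheses; red points are at least 2-fold higher in DRG, blue points at least 2-fold higher in cord and grey points within 2-fold. Neutrophil, red cell and nociceptor genes have the highest medians and central myelin and astrocyte genes the lowest, at -3.22 and -3.19.

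Voltage-gated sodium channels, which generate action potentials, differed by isoform. Of 15 measured sodium channel genes, 7 were at least 2-fold higher in DRG and 5 in cord, and the median was -0.11. On the cut side these counts were 4 and 5, with a median of -0.29. Scn10a, Scn11a and Scn9a encode Nav1.8, Nav1.9 and Nav1.7, the channels of nociceptors. Scn10a read 158 and 87.8 FPKM in DRG against 0 and 0.0975 FPKM in cord (7.31). Scn11a read 105 and 62.9 FPKM against 0 and 0.00971 FPKM (6.72), and Scn9a 70.1 and 56.05 FPKM against 1.46 and 1.95 FPKM (4.85). Some other isoforms were higher in cord. Scn2a1 read 3.07 FPKM in DRG against 29.3 FPKM in cord (-2.90). Scn1a was read in both tissues, at 41.4 against 96.6 FPKM (-1.20). Scn8a, the nodal channel Nav1.6 of myelinated axons in both tissues, was at 56.5 and 73.8 FPKM (-0.38). The beta subunit gene Scn2b was at 25.8 against 94.2 FPKM (-1.83).

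Potassium channels divided in the same manner. Among 73 measured members, 22 were at least 2-fold higher in DRG, 17 in cord and 34 within 2-fold, with a median of -0.22. On the cut side 15 were at least 2-fold higher in DRG and 22 in cord, with a median of -0.14. Kcnd1 and Kcnd2 encode closely related A-type channels. Kcnd1 was at 37.8 FPKM in DRG and 2.59 FPKM in cord (3.43), and Kcnd2 at 0.527 and 23.4 FPKM (-4.00). Kcnd3, the other gene of this family, was at 31.2 and 11.2 FPKM (1.41). Kcnk18, which encodes the background channel TRESK, was at 5.07 FPKM in DRG and listed at 0 in both cord libraries. Kcnab3, a beta subunit gene, had the lowest ratio, with 1.504 and 0.648 FPKM in DRG against 87.3 and 75.3 FPKM in cord (-5.14). Kcnj10 and Kcnj16, which form the glial channel Kir4.1 and its partner, were -3.22 and -3.78. The calcium and HCN channel list leaned to cord, with 2 members at least 2-fold higher in DRG, 11 in cord and 13 within 2-fold. Its extremes were Cacnb3, a beta subunit gene (101 against 14.4 FPKM, 2.73), and Cacna1g, a T-type channel gene (0.0981 against 10.1 FPKM, -3.34).

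Of 26 measured TRP, ASIC, Piezo and P2X channel genes, families that include sensors of heat, cold, touch and ATP, 12 were at least 2-fold higher in DRG, 4 in cord and 10 within 2-fold (median 0.66). Accn2, an acid-sensing channel gene (-0.04), P2rx5 (0.06) and Trpm7 (-0.08) were close to level. P2rx3, an ATP-gated channel of nociceptors, read 134 and 231 FPKM in DRG against 1.16 and 0.878 FPKM in cord (5.97). Fam38b, the older symbol of the touch channel gene Piezo2, read 109 and 80.05 FPKM against 1.39 and 1.305 FPKM (5.53). The capsaicin and heat receptor gene Trpv1 was at 31.98 and 19.3 FPKM in DRG and at 0 in both cord libraries. All 4 libraries were thus separated by tissue for these 3 genes. Trpm8, the cold and menthol receptor gene, was at 25.6 against 0.0557 FPKM (4.66) and Trpa1, the irritant receptor gene, at 15.1 against 0.02999 FPKM (3.97). Trpc5 had the lowest ratio of the list, 0.463 against 10.05 FPKM (-2.92). The itch receptors of the Mrgpr family had 8 measured members of 20, and 7 were at least 2-fold higher in DRG with 0 FPKM in contralateral cord. These 7 calls follow from the filter and the pseudocount. A member at 0 in cord is measured only at 1 FPKM or more in DRG, which is 2-fold on this scale. Mrgprx1 and Mrgpra3 read 17.2 and 9.09 FPKM in contralateral DRG, and Mrgpra2a and Mrgpra2b, near-identical copies that can share reads, 4.55 and 4.74 FPKM. Mrgpre was the member found in both tissues, at 5.79 and 3.63 FPKM.

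Transmitter identity separated the tissues sharply. The vesicular glutamate transporter gene Slc17a6 (VGLUT2) was nearly level, with 85.7 and 95.6 FPKM in DRG and 95.4 and 68.4 FPKM in cord, and the ranges overlapped. Slc17a7 (VGLUT1) was at 81.4 and 66.1 FPKM in DRG against 0 and 0.01998 FPKM in cord (6.36). Inhibitory genes lay the other way. Slc32a1, the vesicular transporter gene for GABA and glycine, was at 0.264 and 0 FPKM in DRG against 70.3 and 54.9 FPKM in cord (-5.82). Gad1, which makes GABA, was at 0.328 and 0.145 FPKM against 91.8 and 45.8 FPKM (-6.13), and Slc6a5, the neuronal glycine transporter gene, at 0.523 and 0.0215 FPKM against 104 and 65.4 FPKM (-6.10). Contralateral DRG read higher than ipsilateral DRG for all 3 of these cord genes, as for the low cord levels given above, and the part of such low-level RNA in their ratios was not tested. Chloride handling differed too. Slc12a5 (KCC2), which exports chloride, was at 0.944 FPKM in DRG and 114 FPKM in cord (-5.88), while Slc12a2 (NKCC1), which imports it, was at 43.8 and 65.3 FPKM (-0.57).

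**Figure D3:**
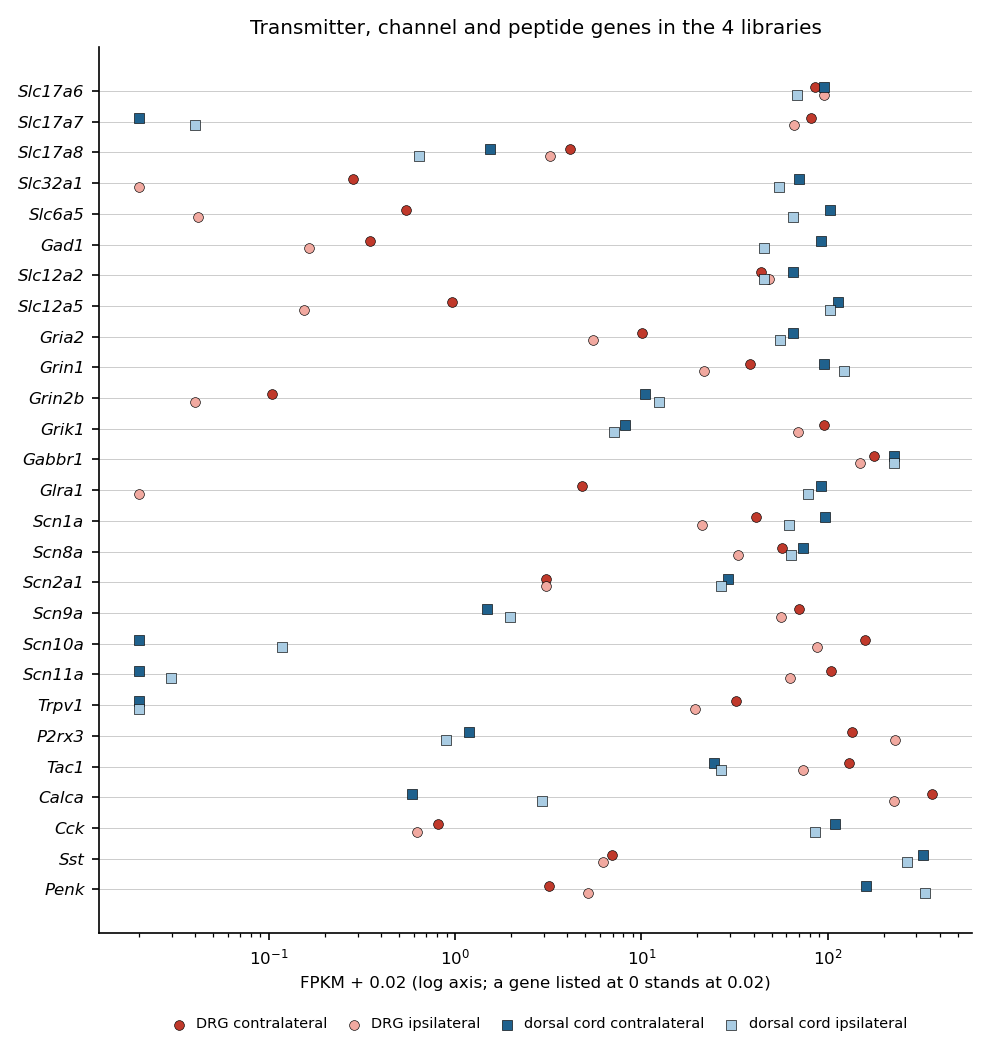
Level of 27 transmitter, channel and peptide genes in each of the 4 libraries, in FPKM + 0.02 on a log axis, with circles for DRG and squares for cord and dark symbols for the contralateral and pale symbols for the ipsilateral side. Circles and squares stand apart for Slc17a7, Slc32a1, Scn10a and Cck, and overlap or lie close for Slc17a6, Slc12a2 and Scn8a; Scn10a is at 158 FPKM in contralateral DRG.

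Receptor genes for these transmitters were read in DRG too, mostly at lower levels than in cord. Among 30 measured GABA and glycine genes, 0 were at least 2-fold higher in DRG and 20 in cord (median -2.26). Of the 16 measured GABA A and glycine receptor subunit genes, 11 were at least 2-fold higher in cord and 5 within 2-fold. The GABA B receptor genes Gabbr1 and Gabbr2 were close to level, at -0.36 and 0.30. Glra1, the adult glycine receptor alpha subunit gene, read 4.76 and 0 FPKM in DRG against 91.6 and 78.9 FPKM in cord (-4.01). Glutamate receptor and transporter genes also leaned to cord, with 4 of 44 measured at least 2-fold higher in DRG and 27 in cord (median -1.41). Grik1, the kainate receptor gene GluK1, was the exception among ionotropic receptors. It read 95.7 and 69.2 FPKM in DRG against 8.18 and 7.09 FPKM in cord (3.40), and of the 17 measured ionotropic receptor genes it was the 1 at least 2-fold higher in DRG. NMDA receptors need the Grin1 subunit together with a Grin2 subunit. Grin1 was at 38.2 FPKM in DRG and 95.3 FPKM in cord (-1.30), while Grin2a and Grin2b were at 0.0708 and 0.0836 FPKM in DRG and 13.98 and 10.4 FPKM in cord. Grm5, a metabotropic receptor gene, was at 0.251 against 28.8 FPKM (-4.58).

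Receptors for acetylcholine and serotonin split by gene, with 8 of 24 measured at least 2-fold higher in DRG and 7 in cord. Htr3a, the ionotropic serotonin receptor gene, was at 45.01 and 11.9 FPKM in DRG and 2.07 and 1.91 FPKM in cord (3.91). Chrna6, a nicotinic subunit gene, was at 15.1 against 0.1802 FPKM (3.77), and Htr1d, a receptor gene targeted by migraine drugs, at 30.2 against 1.98 FPKM (3.39). Htr2c lay at the other end with 0.134 and 0.0429 FPKM in DRG against 30.1 and 25.1 FPKM in cord (-4.78). Both ends of this list held serotonin receptor genes, each with its libraries separated by tissue.

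Neuropeptide genes were more often higher in cord. Of 38 measured (28 more were under 1 FPKM), 6 were at least 2-fold higher in DRG and 18 in cord, with a median of -0.99. Contralateral DRG listed 9 of the 38 at 0 and contralateral cord 1, and their calls follow from the filter and the pseudocount. Calca and its paralogue Calcb, both CGRP genes, were higher in DRG at 7.87 and 4.52. Tac1, the substance P precursor gene, was found in both tissues, at 131 and 73.8 FPKM in DRG and 24.6 and 26.6 FPKM in cord (2.36). Nppb, an itch peptide gene, was at 6.22 FPKM in DRG and listed at 0 in both cord libraries. Peptides of cord interneurons formed the other end. Cck read 0.791 and 0.607 FPKM in DRG against 109 and 85.1 FPKM in cord (-5.94), and Penk, the enkephalin precursor gene, 3.16 and 5.16 FPKM against 160.3 and 335 FPKM (-5.28). Tac2, the neurokinin B gene, was listed at 0 in both DRG libraries and read 50.1 and 105 FPKM in cord. Grp, the itch-related gastrin-releasing peptide gene, was listed at 0 in contralateral DRG against 9.35 FPKM in contralateral cord (-3.37). Of the injury-responsive peptides, Npy and Gal read 6.26 and 8.47 FPKM in contralateral DRG and 25.9 and 10.3 FPKM in contralateral cord. In the ipsilateral DRG they read 373 and 232 FPKM.

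Neurons of the dorsal horn were represented in cord by both transmitter classes. Of 18 measured inhibitory neuron genes 14 were at least 2-fold higher in cord and 1 in DRG (median -2.44), and of 25 excitatory neuron genes 15 and 5 (median -1.27). The excitatory list shares genes with sensory neurons, and Tlx3 and Prrxl1, homeobox genes used by both, were higher in DRG at 2.02 and 1.83. Calb2, the calretinin gene, was at 11.9 and 4.89 FPKM in DRG and 144 and 164 FPKM in cord (-3.49). Lmx1b and Rorb, transcription factor genes of excitatory and mixed interneurons, were at 0.0751 and 0.0294 FPKM in contralateral DRG and 8.51 and 8.47 FPKM in contralateral cord. Transcription factors of the dorsal cord as a list had 31 measured members of 48, 27 at least 2-fold higher in cord and 2 in DRG, and a median of -1.77. The 2 were Maf and Prdm8 (1.49 and 1.29). Pax2, Lbx1 and Gbx2, early patterning factors of dorsal interneurons, were listed at 0 in both DRG libraries, at cord levels of 3.29, 3.38 and 1.12 FPKM. Contralateral DRG listed 8 of the 31 transcription factors, 3 of the 18 inhibitory and 5 of the 25 excitatory genes at 0. Their cord calls follow from the filter and the pseudocount.

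Hox genes, which give cells their position along the body axis, were nearly all higher in cord although both tissues came from lumbar levels. Of 28 measured, 23 were at least 2-fold higher in cord and 1 in DRG, and the median was -1.72. The paralogue groups 8 to 10, which are active at lower thoracic and lumbar levels, had 8 of 10 at least 2-fold higher in cord (median -2.13), and the 9 genes of groups 11 to 13 were under 1 FPKM in both contralateral libraries. Hoxb8 read 7.06 and 3.53 FPKM in DRG against 129.6 and 164 FPKM in cord (-4.02). Hoxc10 read 7.92 and 8.86 FPKM against 95.8 and 93.4 FPKM (-3.44), and Hoxd10 0.578 and 0.523 FPKM against 29.7 and 29.03 FPKM (-4.28). Members differed within a group. Hoxa9 was at 6.82 and 11.4 FPKM (-0.66), and Hoxb9 at 10.7 and 101 FPKM (-3.13). The gene higher in DRG was Hoxd1, an anterior gene known from peptidergic nociceptors, with 16.98 and 9.38 FPKM in DRG against 1.03 and 0.396 FPKM in cord (3.15).

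**Figure D4:**
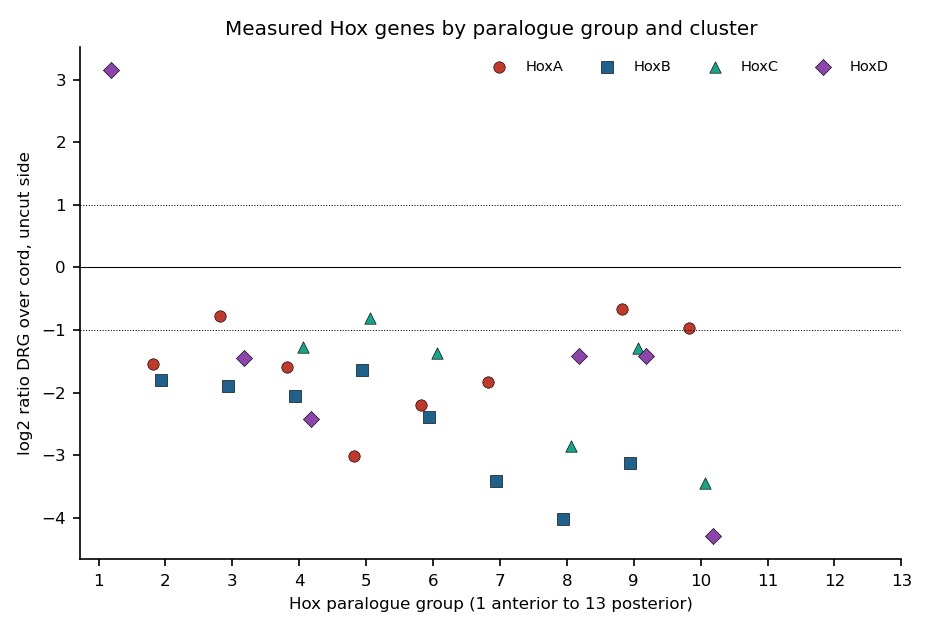
Log2 ratio of contralateral DRG over contralateral cord for the 28 measured Hox genes by paralogue group, with symbols for the 4 clusters and dotted lines at 2-fold. Hoxd1 lies at 3.15 and all other measured genes below 0, down to -4.28 for Hoxd10.

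Astrocyte genes were higher in cord in 24 of 25 measured members, with a median of -3.19. Aqp4, the water channel gene of astrocyte endfeet, was at 5.099 and 2.04 FPKM in DRG and 157 and 163 FPKM in cord (-4.70). The exception was S100b, a calcium-binding protein gene of astrocytes and of Schwann cells, at 727 and 584 FPKM in DRG and 683 and 409 FPKM in cord (0.09). Satellite glia of DRG share part of the astrocyte programme, and their list was divided, with 8 of 28 measured at least 2-fold higher in DRG and 12 in cord (median -0.50). Abca8a, a transporter gene, read 54.5 and 68.4 FPKM in DRG against 1.36 and 0.899 FPKM in cord (4.55), and Fabp7, a fatty acid-binding protein gene, 381 against 113 FPKM (1.75). Genes used to mark satellite glia but also strong in astrocytes lay on the cord side. Kcnj10 was at 26.3 and 254 FPKM and Glul, the glutamine synthetase gene, at 179 and 751 FPKM (-2.06). Gja1, which encodes connexin 43, was at 16.4 and 300.2 FPKM (-4.11). After members shared with the astrocyte and central myelin lists were set aside, 8 of 21 were at least 2-fold higher in DRG and 7 in cord.

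Myelin genes divided by the cell that makes the myelin. Of 21 genes on the peripheral list alone, 16 were at least 2-fold higher in DRG and 2 in cord (median 2.99). Of 27 on the central list alone, 0 were higher in DRG and 25 in cord (median -3.57). The 8 genes on both lists leaned to cord, 7 of them by at least 2-fold (median -1.82). Of 29 genes on the whole peripheral list, contralateral cord listed 5 at 0, and these 5 calls follow from the filter and the pseudocount. Prx, which encodes periaxin of Schwann cells, read 93.6 and 104 FPKM in DRG against 0.200 and 0.196 FPKM in cord (6.30). Pmp22, a compact myelin gene whose dosage underlies a hereditary neuropathy, read 632 and 740 FPKM against 28.2 and 38.2 FPKM (4.44). The shared gene Mbp, myelin basic protein, was high in both tissues, at 727 and 757 FPKM in DRG and 3100.4 and 3239.6 FPKM in cord (-2.09). Sox10, a transcription factor of both Schwann cells and oligodendrocytes, was level at 15.99 and 17.2 FPKM, whereas Olig1 and Olig2, factors of oligodendrocytes, were at 0.194 and 0.102 FPKM in DRG and 31.99 and 19.7 FPKM in cord. Oligodendrocyte precursor genes had 17 of 20 measured at least 2-fold higher in cord and 0 in DRG. With only features whose test status is OK in both deposited tables, the median of the whole peripheral list turned from 2.17 to -0.10, because the 8 members left out were all at least 2-fold higher in DRG.

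Of 31 measured intermediate filament, tubulin and related genes 16 were at least 2-fold higher in DRG, 6 in cord and 9 within 2-fold (median 1.21). The list also holds filament genes of other cells, among them Gfap (-6.91) and Vim, the vimentin gene (3.75). Sncg, the gamma-synuclein gene, read 2848 and 2572 FPKM in DRG against 36.9 and 108 FPKM in cord (6.23), while its relative Sncb had -1.71. Mtap1b, a microtubule-associated protein gene of axons, was at 1503 and 348 FPKM (2.11), and Mtap2, that of dendrites, at 36.8 and 229 FPKM (-2.61). Ina, the internexin gene, was higher in cord at 20.98 against 128 FPKM (-2.55). Synaptic vesicle and release genes differed less, with 2 of 35 at least 2-fold higher in DRG, 6 in cord and a median of -0.30. Sv2a, a vesicle protein gene, was at 24.8 against 185 FPKM (-2.85) and its paralogue Sv2b at 80.5 against 26.6 FPKM (1.56).

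Growth factor receptors differed gene by gene. Of 27 measured growth factor receptor genes 11 were at least 2-fold higher in DRG and 7 in cord (median 0.88). Ngfr, the p75 receptor gene, was at 191 and 134 FPKM in DRG and 1.33 and 1.09 FPKM in cord (6.36). Ret, the signalling receptor gene for GDNF-family ligands, was at 116 and 143 FPKM against 11.01 and 10.9 FPKM (3.28). Of the neurotrophin receptors, Ntrk3 was higher in DRG (1.14) and Ntrk2, which astrocytes also express, in cord (-1.05). Fgfr2 and Fgfr3, fibroblast growth factor receptor genes of glia, were at 0.749 and 0.5304 FPKM in DRG against 27.6 and 44.8 FPKM in cord.

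Antigen presentation and interferon response genes were higher in DRG in 30 of 30 measured members, with a median of 2.20. On the cut side 18 of the 30 were at least 2-fold higher in DRG, with a median of 1.27. H2-Ab1, a class II chain gene of antigen-presenting cells, read 36.1 and 44.3 FPKM in DRG against 0.08201 and 0.166 FPKM in cord (5.10). Cd74, the invariant chain gene, read 35.0 and 52.9 FPKM against 0.756 and 0.804 FPKM (4.36). The light chain gene B2m of class I was at 268 and 262 FPKM against 65.2 and 133 FPKM (2.02). All 3 were separated by tissue in the 4 libraries. Ifit1, an interferon-induced gene, was at 31.8 and 17.96 FPKM against 1.12 and 3.002 FPKM (3.96). The 6 class II genes had a median of 3.56, the 8 class I genes 2.15 and the 15 interferon response genes 2.15. The H2 genes belong to families of similar copies, so their counting is uncertain.

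Blood cell markers lay in the same direction as these immune genes. All 8 measured red cell genes and all 9 measured neutrophil and bone marrow genes were at least 2-fold higher in DRG in each pair of libraries. Contralateral cord listed 3 of the 8 and 6 of the 9 at 0, and their contralateral calls follow from the filter and the pseudocount. Hba-a1, an alpha globin gene, read 11727 and 11578 FPKM in DRG against 179 and 123 FPKM in cord (6.03). S100a9 and S100a8, the calprotectin genes of neutrophils, read 110.3 and 76.9 FPKM in contralateral DRG against 0 and 0.215 FPKM in contralateral cord. Summed over the list, neutrophil and marrow genes came to 334 and 307 FPKM in DRG and 1.39 and 1.29 FPKM in cord. Ngp and Camp, granule protein genes made by maturing marrow cells, read 64.0 and 22.4 FPKM in contralateral DRG. The part of blood and marrow cells in the immune gene results was not tested.

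Macrophage and microglia genes lay on opposite sides. Microglia identity genes had 12 of 21 measured members at least 2-fold higher in contralateral cord and 1 in DRG (median -1.22, cut side -1.84). Of 19 measured genes of border and tissue macrophages 16 were at least 2-fold higher in DRG and 0 in cord (median 1.65, cut side 3.01). Contralateral cord listed 5 of these 19 at 0, and their contralateral calls follow from the filter and the pseudocount. Summed over the list, microglia genes came to 148 and 305 FPKM in DRG and 286 and 1155 FPKM in cord. Border macrophage genes, of which some are class II genes, came to 270.1 and 470.5 FPKM in DRG and 25.8 and 37.9 FPKM in cord. Sall1, which encodes a factor that maintains microglial identity, was at 0.121 and 0.0579 FPKM in DRG against 8.79 and 10.5 FPKM in cord (-3.13). P2ry12, a purinergic receptor gene of resting microglia, was at 2.11 and 3.57 FPKM against 8.63 and 30.2 FPKM (-1.63). Lyz2, a lysozyme gene of macrophages and neutrophils, was at 88.7 and 160.2 FPKM in DRG and 5.28 and 13.1 FPKM in cord (3.84), and Mrc1, the mannose receptor gene, at 3.51 and 14.7 FPKM against 0.175 and 0.428 FPKM (1.94). Complement and coagulation genes were mixed, with 10 of 27 at least 2-fold higher in DRG and 4 in cord. Cd55, which protects cells from complement, was at 142 and 100.4 FPKM in DRG and 3.07 and 2.42 FPKM in cord (5.13). The C1q genes C1qa, C1qb and C1qc, made by microglia and macrophages, had -0.77, 0.10 and -1.06. Mast cell genes had 4 of 6 measured members at least 2-fold higher in DRG and 0 in cord. These were the protease genes Mcpt4, Cma1, Tpsb2 and Cpa3, which read 1.34 to 4.75 FPKM in contralateral DRG and 0 in both cord libraries. At 0 in cord, their 2-fold calls follow from the filter and the pseudocount. The other 2 measured members, Kit and Gata2, lay within 2-fold (0.99 and -0.69).

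Connective tissue genes were mostly higher in DRG. Of 32 measured fibroblast and nerve sheath genes 21 were at least 2-fold higher in DRG and 2 in cord (median 1.74, cut side 2.64). Dcn, the decorin gene, read 245 and 494 FPKM in DRG against 7.19 and 4.42 FPKM in cord (4.91). Mfap5, a microfibril gene, was at 31.2 and 41.7 FPKM and listed at 0 in both cord libraries. Endothelial genes had 4 of 26 at least 2-fold higher in DRG and 5 in cord (median -0.10). Smooth muscle and pericyte genes had 1 of 11 at least 2-fold higher in DRG and 2 in cord (median -0.15). Both vascular lists were thus close to the shares over all measured features, 13.1% and 15.5%. Pecam1, a pan-endothelial gene, was at 6.39 and 6.33 FPKM (0.01). Genes known from the blood-brain barrier lay on both sides. Slc2a1, the glucose transporter gene, was at 18.9 FPKM in DRG and 51.7 FPKM in cord (-1.40), and Cldn5, the endothelial tight junction gene, at 4.15 and 10.4 FPKM (-1.15). Abcg2, an efflux transporter gene, had the highest ratio of the endothelial list, with 37.6 and 40.8 FPKM in DRG against 9.19 and 6.12 FPKM in cord (1.92). Connexin and claudin genes had 13 of 19 at least 2-fold higher in cord and 2 in DRG. Cldn19 of Schwann cells (33.5 FPKM against 0) and Cldn11 of oligodendrocytes (12.3 against 592 FPKM) stood at opposite ends (5.11 and -5.47).

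Markers of muscle and fat, tissues that a dissection can carry along, were mostly under 1 FPKM. Of 18 skeletal muscle genes 4 were measured, with Acta1 at 25.9 FPKM in DRG and 9.19 FPKM in cord. Of 15 fat cell genes 7 were measured, and the fat-specific gene Fabp4 was at 5.76 against 0.0927 FPKM. Cartilage and bone genes had 11 of 21 measured, 4 at least 2-fold higher in each tissue, with the bone matrix gene Ibsp at 8.28 FPKM in DRG against 0. Genes of ependymal cells, the ciliated cells that line the central canal, had 12 of 19 measured, 6 at least 2-fold higher in cord and 2 in DRG. The list also holds genes of other cells, and the 2 were Nes, an intermediate filament gene of progenitor cells (2.81), and Rarres2, the chemerin gene (2.16). Foxj1, at 4.53 FPKM in DRG and 4.46 FPKM in cord (0.02), and Rsph1, at 7.08 and 7.61 FPKM (-0.09), were close to level. Genes of meningeal fibroblasts had 9 of 17 at least 2-fold higher in DRG and 3 in cord (median 1.05), although several of them are also fibroblast or Schwann cell genes. Contralateral cord listed 3 of these 17 at 0, and their calls follow from the filter and the pseudocount.

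Genes used by all cells lay close to level. Of 17 housekeeping genes 1 was at least 2-fold higher in DRG (B2m) and 0 in cord, with a median of -0.0044 on the uncut side, which turns positive when cord is rescaled as below, and 0.47 on the cut side. Gapdh, a glycolytic enzyme gene, was at 53.5 and 53.6 FPKM. Ribosomal protein genes had 0 of 53 at least 2-fold higher in DRG and 3 in cord (median -0.34), and respiratory chain genes 0 of 56 and 3 (median -0.37). Rescaling cord so that the median ratio over all features is 1 multiplied its values by 0.914, and it moved the overall median from -0.11 to 0.01. Genes named here as close to level can change sign with that scaling.

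Genes known to respond to axon injury were split between the tissues on the uncut side. Of 22 measured 4 were at least 2-fold higher in contralateral DRG and 7 in contralateral cord (median -0.19), whereas between the ipsilateral libraries 19 were at least 2-fold higher in DRG, beside 14.5% of all features on that side, and 0 in cord (median 2.36). Atf3, a stress-induced transcription factor gene, read 12.6 FPKM in contralateral DRG and 1.05 FPKM in contralateral cord (2.72), and 389 and 9.59 FPKM on the cut side. Gap43, a growth cone gene, was level on the uncut side at 273 and 277 FPKM. Hspb1, a small heat shock protein gene, was already higher in contralateral DRG, at 74.6 against 3.02 FPKM (4.24).

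**Figure D5:**
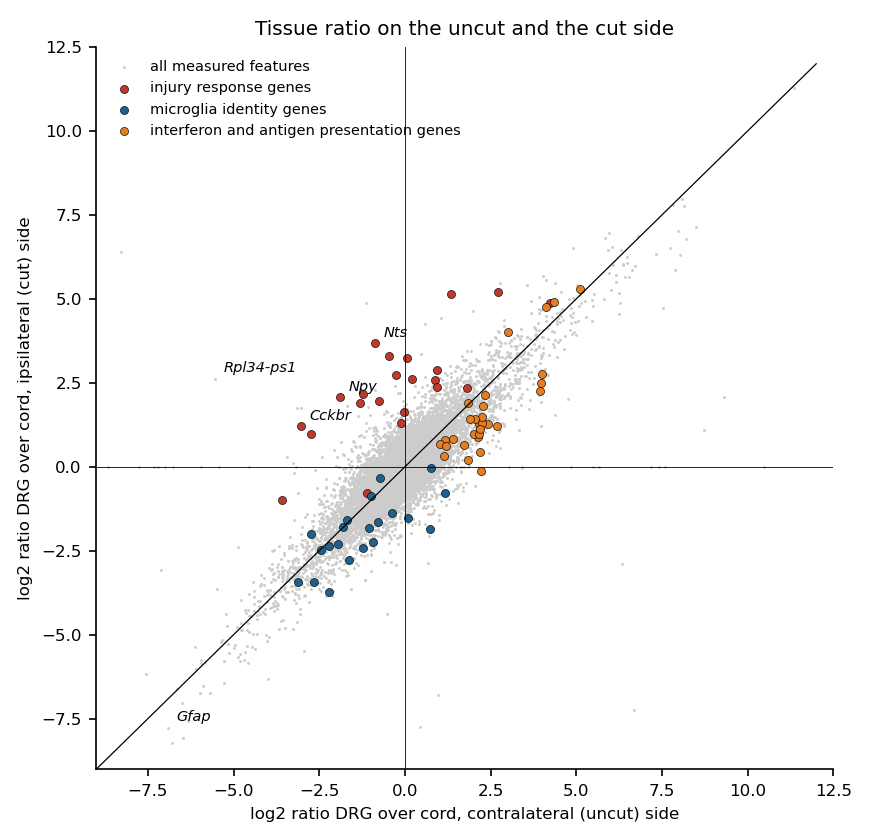
Log2 ratio of DRG over cord for each measured feature on the contralateral (x axis) and ipsilateral (y axis) side, with injury response, microglia identity and interferon and antigen presentation genes coloured and the diagonal marking equal ratios. Most features lie along the diagonal (Pearson r 0.84 over 13674 features), injury response genes lie above it with a median of 2.36 on the cut side, and microglia genes lie mostly below it.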

How the data were processed

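RNA sequencing was done on 4 libraries (DRG and dorsal cord, ipsilateral and contralateral). RNeasy columns gave the RNA and an Epicentre ScriptSeq kit the libraries, per the labels' protocols. TopHat 1.4.0, Cuffdiff 1.3.0 and the build mm9 are named in the submitters' processing notes. For annotation and strand setting, the sources used here give no entry. The authors deposited 1 table per tissue, with FPKM of each library. Per the file headers, the tables also give a log2 fold change, a test statistic (used as a score), p-values and q-values between the sides of a tissue. Deposited p-values equalled a two-sided normal test of the statistic, within 0.001, for 100% of features with both libraries above 0, so its standard error could be recovered; it served only for intervals of folds. Read depth is unknown. Columns of per-sample values left out: 0.

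The tables were joined on feature (21883 features, each symbol on 1 row), and log2((DRG + 1)/(cord + 1)) was computed on features at 1 FPKM or more in either contralateral library. The pseudocount understates differences of low genes. A measured feature listed at 0 in one contralateral library is always called 2-fold, since it must reach 1 FPKM in the other. A level of exactly 0 can be a failed estimate, also where both libraries of a tissue read 0. Contralateral cord listed 229 features 2-fold higher in DRG at 0. Of these, 119 were also listed at 0 and 20 were at 1 FPKM or more in ipsilateral cord. Contralateral DRG listed 123 features 2-fold higher in cord at 0. Of these, 71 were also listed at 0 and 11 were at 1 FPKM or more in ipsilateral DRG. The members and the 45 gene lists were chosen with earlier results of these data known, and lists share members. Named are the 15 highest and 15 lowest ratios without small RNA genes, in each list up to 6 largest and 3 smallest absolute ratios (all members of lists of up to 8), and the 10 highest levels per library; some genes this rule names are not reported here. These other genes were named after their values were seen: Aqp4, C1qa, C1qc, Calcb, Cldn5, Fabp7, Gbx2, Glra1, Glul, Grin1, Ina, Kcnd3, Kcnk18, Lbx1, Maf, Mrc1, Mtap1b, Mtap2, Nppb, Ntrk2, Ntrk3, P2ry12, Pax2, Pmp22, Prdm8, Prrxl1, Scn1a, Scn2b, Slc12a2, Sncb, Tac1, Th, Tlx3 and Trpc5. Promoter windows are RefSeq's (GRCm38.p6), matched by symbol or synonym; protein sequences were not used here. Scripts (Python 3.11.15, pandas 2.3.3, numpy 2.4.6, scipy 1.17.1, matplotlib 3.10.9) were checked on simulated data. Of 13 alternatives, 12 were planned and 1 was added after seeing the data.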

Additional observations from a re-analysis of the deposited data

Results flagged for a closer look

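Some tissue ratios pointed one way between the contralateral and the opposite way between the ipsilateral libraries. These differences were not tested, since each pair is 1 library against 1 library. Npy was at 6.26 FPKM in DRG and 25.9 FPKM in cord on the uncut side (-1.89), and at 373 and 87.3 FPKM on the cut side (2.08). Cckbr, a cholecystokinin receptor gene, was at 0.803 and 13.6 FPKM on the uncut side (-3.02) and at 32.9 and 13.6 FPKM on the cut side (1.22). Rpl34-ps1, a pseudogene, went from -5.55 to 2.63, with 60.3 FPKM in contralateral and 1.96 FPKM in ipsilateral cord. The median of the injury response list was -0.19 on the uncut side and 2.36 on the cut side.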

How the results depend on the processing

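The counts of features at least 2-fold higher in DRG ran from 1198 (pseudocount of 3 FPKM) to 2138 (pseudocount of 0.1 FPKM) over 13 alternatives, and those higher in cord from 1395 to 2648 at the same settings. The cord count at a pseudocount of 3 FPKM, 1395 against 2116, was the 1 count that left the range of 1.5 times. The share of called features that were higher in DRG ran from 44.1% to 52.2%, the latter with cord rescaled to a median ratio of 1. Summing rows of a symbol changed nothing, since 0 symbols stood on more than 1 row. Of 24 lists with a median past 1 in size, 24 stayed past it in the same direction under 9 alternatives, 22 with features at 5 FPKM or more, 20 with no filter, 18 with test status OK in both tables and 16 at a pseudocount of 3 FPKM. With test status OK, which left out 8 and 5 members higher in DRG, the medians of peripheral myelin and of meningeal fibroblast genes turned to -0.10 and -0.12. With the ipsilateral libraries in place of the contralateral ones, Acvr1c turned to 0.59, Cckbr to 1.22, Ecel1 to 0.99, Npy to 2.08 and Rpl34-ps1 to 2.63. With the mean of both sides, Cckbr turned to 0.29, Ecel1 to 0.077 and Npy to 1.73. The cause was not tested. Leaving haemoglobin genes out of the scaling, an alternative chosen after seeing the data, gave 2081 and 2398 features. No paired analysis was possible because each group is 1 library. Depth is unknown, and at 10 FPKM or more in both tissues the standard error of a plain log2 ratio was 0.37 in the median.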
